A study of Rattus norvegicus with 6 samples.

Results

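The 10 genes described here carry out or support the cytosolic synthesis of fatty acids and their lengthening and desaturation: Acly, Acss2, Acaca, Acacb, Fasn, Thrsp, Elovl1, Scd2, Fads1 and Fads2. They were chosen by name, and every array probe whose RefSeq accession maps to one of these symbols was taken, which gave 21 probes among 61526 used and 10 genes among 15277 named ones. The RNA came from the renal cortex of 6 Sprague-Dawley rats, all male, purchased at 5 weeks of age and hybridised one per array to single-colour Agilent arrays. The vehicle group (n = 3) received corn oil for 4 weeks, and the treated group (n = 3) received o-anthranilic acid, an aromatic acid formed in the breakdown of tryptophan, at 1000 mg/kg/day over the same time. Both groups ate the same basal diet, and no allele or transgene is named. The labels give neither the feeding state nor the age at sampling.

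Cytosolic fatty acid synthesis starts from acetyl-CoA, which is carboxylated to malonyl-CoA and condensed by fatty acid synthase into palmitate. Elongases and desaturases then lengthen the chain and add double bonds, both to the palmitate made in the cell and to dietary essential fatty acids. Liver and fat are the best known sites of this pathway, whereas the proximal tubules that fill most of the renal cortex are known for burning fatty acids. Transcription of many of its genes is driven by sterol regulatory element-binding proteins together with NF-Y and Sp1, by the carbohydrate sensor encoded by Mlxipl and by liver X receptors.

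Promoter sequence from RefSeq (assembly GRCr8) was held for 8 of the 10 genes, and Acaca and Fasn had no entry. The 250 bases upstream of the annotated start are printed for the pair of genes with the highest Pearson r between their signals over the arrays, Acly (chr10:85963632-85963881, minus strand) and Fads1 (chr1:216252442-216252691, plus strand), and for Elovl1 (chr5:137247905-137248154, plus strand), whose signal ran opposite to that of Acly. Capitals mark the NF-Y box CCAAT and the GC box GGGCGG, the core of Sp1 sites, on either strand.
Acly: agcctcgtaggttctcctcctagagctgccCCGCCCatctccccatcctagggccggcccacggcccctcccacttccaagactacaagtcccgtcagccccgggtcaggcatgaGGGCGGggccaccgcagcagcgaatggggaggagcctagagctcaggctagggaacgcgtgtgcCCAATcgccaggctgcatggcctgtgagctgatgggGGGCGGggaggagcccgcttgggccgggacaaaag
Fads1: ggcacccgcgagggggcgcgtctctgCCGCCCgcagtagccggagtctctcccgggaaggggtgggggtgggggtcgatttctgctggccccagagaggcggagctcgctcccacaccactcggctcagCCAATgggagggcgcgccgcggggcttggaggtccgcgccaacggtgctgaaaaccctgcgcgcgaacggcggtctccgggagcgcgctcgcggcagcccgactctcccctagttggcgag
Elovl1: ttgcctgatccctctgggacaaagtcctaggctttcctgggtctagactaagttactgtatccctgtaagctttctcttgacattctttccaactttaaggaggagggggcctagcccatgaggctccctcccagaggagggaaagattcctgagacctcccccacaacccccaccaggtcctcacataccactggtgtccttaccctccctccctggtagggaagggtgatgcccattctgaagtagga
The Acly window holds 1 CCAAT, which starts 71 bases before the gene start, and 3 GC boxes. The Fads1 window holds 1 CCAAT at 121 bases and 1 GC box, and the Elovl1 window holds neither. In windows that also took in the first 50 bases of the gene, CCAAT was found on either strand in 6 of the 8 genes (Acly, Acss2, Acacb, Fads1, Scd2 and Thrsp) and in 37.5% of 33469 rat promoters. In those 6 genes every copy started between 54 and 121 bases before the gene start. GGGCGG was found in 5 of the 8 (Acly, Acss2, Fads1, Fads2 and Thrsp) and in 33.1% of all promoters. The sterol regulatory element letters TCACCCCAC, the E box CACGTG and the AGGTCA direct repeat with 4 bases between its copies were in none of the 8. Across all promoters they were in 0.484%, 6.42% and 0.00598%. In these 8 windows no CCAAT match shared a base with a GC box. In the differences given below, the genes with CCAAT were higher in treated rats except Acacb, which was lower on its tested probe. Of the genes without CCAAT, Fads2 was higher and Elovl1 lower. A match is a description of letters, not of a bound site, and its relation to the differences was not tested.

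Each signal below is the log2 of the background-subtracted intensity minus the log2 of its array's 75th percentile, so that 0 is the 75th percentile of the array and a difference of 1 is a doubling. Levels of different probes are not compared, since probes differ in brightness for the same amount of RNA. Testing required a signal well above background on 3 or more of the 6 arrays, which held for 20 of the 21 probes and for all 10 genes. Differences are treated minus vehicle, with the standard error, 95% interval and p of limma. Adjusted p-values are Benjamini-Hochberg values over 41551 tested probes.

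No probe of the 10 genes was called at an adjusted p under 0.05, and the same held for all tested probes (0% called, smallest adjusted p = 0.105). Under the 19 alternative settings tried, 0 to 6 of all tested probes were called, and never a probe of these genes. At an unadjusted p under 0.05, limma listed 1 of the 20 probes, the dimmer Acaca probe, which was lower in treated rats. Over all tested probes that share was 8.47%, or 3519 probes, with 3.36% higher and 5.11% lower. The differences of the 20 probes lay between -0.33 and 0.40, at most 1.32-fold. They were above 0 for 13 probes and below 0 for 7, with a median of 0.18 against -0.01 over all tested probes, of which 46.9% were above 0. The 7 probes below 0 were those of Acaca, the tested probe of Acacb and the 4 probes of Elovl1.

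**Figure D1:**
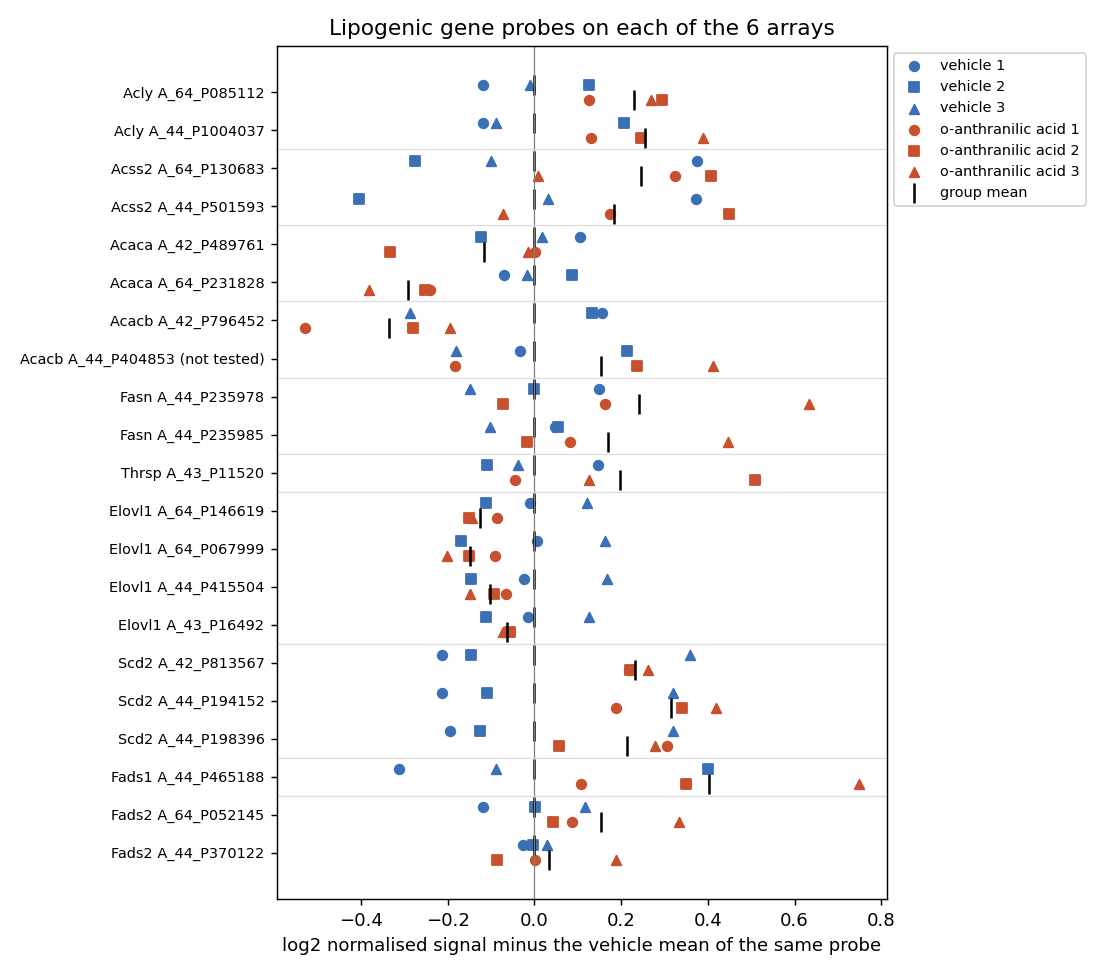
Log2 normalised signal of the 21 probes on each array, minus the vehicle mean of the same probe (horizontal axis, log2 units). Blue marks are the 3 vehicle rats, orange marks the 3 o-anthranilic acid rats, and black ticks the group means. The groups lie apart for the Acaca probe A_64_P231828, and they overlap or touch for the other tested probes.

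Acly encodes ATP citrate lyase, which makes cytosolic acetyl-CoA from citrate, and Acss2 encodes the cytosolic synthetase that makes it from acetate. The brighter Acly probe (A_64_P085112, NM_016987) read 3.69, 3.93 and 3.80 in the vehicle rats and 3.93, 4.10 and 4.08 in the treated rats. The treated rats were the upper part of the range, and the highest vehicle rat and the lowest treated rat were level at 3.93. The means were 3.81 ± 0.12 and 4.04 ± 0.09 (SD, n = 3 each), and the difference was 0.23 ± 0.09 (SE), or 1.17-fold, with an adjusted p of 0.587 in limma. The second Acly probe (A_44_P1004037) gave 0.25 ± 0.12, with vehicle values of 3.49, 3.81 and 3.52 and treated values of 3.74, 3.85 and 4.0. One vehicle rat, replicate 2, lay among the treated rats on both probes.

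For Acss2 the brighter probe (A_64_P130683, NM_001107793) read 3.66, 3.01 and 3.18 in vehicle rats and 3.61, 3.69 and 3.29 in treated rats. Vehicle 1 stood with the treated rats, and treated 3 stood with the other vehicle rats. The difference was 0.25 ± 0.20 (SE, n = 3 each, 95% interval -0.23 to 0.72, adjusted p = 0.755 in limma). On the second probe (A_44_P501593) it was 0.18 ± 0.23, and without vehicle 2, the lowest rat, it was -0.019. The sign of the Acss2 difference on that probe thus rested on 1 rat. Without vehicle 1 the differences were 0.43 and 0.37.

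Acaca and Acacb encode the acetyl-CoA carboxylases, which make malonyl-CoA. The product of Acaca feeds synthesis, and Acacb is the form at the outer mitochondrial membrane, whose malonyl-CoA restrains the entry of fatty acids for oxidation. The dimmer Acaca probe (A_64_P231828, NM_022193) read -3.90, -3.75 and -3.85 in vehicle rats and -4.07, -4.08 and -4.21 in treated rats. All 3 treated rats lay below all 3 vehicle rats. The means were -3.83 ± 0.08 and -4.12 ± 0.08 (SD, n = 3 each), a difference of -0.29 ± 0.08 (SE, 95% interval -0.49 to -0.09) or 1.22-fold, with an adjusted p of 0.481 in limma.

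The other Acaca probe (A_42_P489761) did not follow it: it read -3.39, -3.61 and -3.47 in vehicle rats and -3.49, -3.82 and -3.51 in treated rats. Only treated 2 lay below the vehicle range, the difference was -0.12 ± 0.12, and without that rat it was -0.01. Treated 2 is the only array on its slide, so -0.01 is also the value with the slide as a block. The part of the slide in this value was not tested. Over the 6 arrays the 2 Acaca probes had a Pearson r of 0.158. Both are dim, and their processed signals were 52.3 to 88.1 units on arrays whose median local background was 32 to 73 units. With a normexp background correction, which here added an offset of 50 units, the dimmer probe's difference was -0.13 ± 0.08 (SE, adjusted p = 0.731 in limma). An offset of that size by itself makes log2 differences of dim probes smaller, so the value does not isolate the background. With a variance trend and robust fit the dimmer probe's difference was -0.29 ± 0.14 (adjusted p = 0.601 in limma).

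The tested Acacb probe (A_42_P796452, NM_053922) read -3.66, -3.68 and -4.10 in vehicle rats and -4.34, -4.09 and -4.01 in treated rats. Vehicle 3 lay among the treated rats. The difference was -0.33 ± 0.15 (SE, n = 3 each, 95% interval -0.71 to 0.04, adjusted p = 0.618 in limma). With normexp, whose offset by itself makes differences of dim probes smaller, it was -0.14. The second Acacb probe (A_44_P404853) was well above background on 2 arrays, 1 of each group, and was not tested. Its 6 values lay between -6.22 and -5.62, and its group means were -6.03 and -5.88.

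Fasn encodes fatty acid synthase, which builds palmitate. Its probe A_44_P235978 (NM_017332) read 1.42, 1.27 and 1.12 in vehicle rats and 1.43, 1.20 and 1.90 in treated rats. Treated 3 stood above the other 5 rats, and treated 1 and 2 lay within or at the edge of the vehicle range. The difference was 0.24 ± 0.19 (SE, n = 3 each, 95% interval -0.23 to 0.71, adjusted p = 0.755 in limma). Without treated 3 it was 0.04, and without treated 2 it was 0.40. The second Fasn probe (A_44_P235985) had the same order of rats at the top, with treated 3 at 1.73 and the other 5 between 1.18 and 1.36, and its difference was 0.17 ± 0.14, or 0.03 without treated 3.

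Thrsp encodes a small protein, known as Spot 14, that accompanies lipogenic enzymes in liver and fat. Its only probe (A_43_P11520, NM_012703) read -3.68, -3.93 and -3.86 in vehicle rats and -3.87, -3.32 and -3.70 in treated rats. Treated 2 stood alone above the other 5, and treated 1 and 3 lay within the vehicle range. The difference was 0.20 ± 0.16 (SE, n = 3 each, 95% interval -0.19 to 0.58, adjusted p = 0.758 in limma). Treated 2 is also the array on a slide of its own, with a median local background of 73 units against 32 to 39 on the other 5. Without it, which is also the value with the slide as a block, the Thrsp difference was 0.04. With normexp, whose offset by itself makes differences of dim probes smaller, the Thrsp difference was 0.05. The probe is dim, at 59.8 to 98.2 processed units, and the part of the slide in this value was not tested.

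Elovl1 encodes the elongase of saturated and monounsaturated very long chains, which go into sphingolipids. Its brightest probe (A_64_P146619, NM_001044275) read 6.18, 6.08 and 6.32 in vehicle rats and 6.11, 6.04 and 6.05 in treated rats. The treated rats were close to one another (SD 0.04) and overlapped the lower part of the vehicle range (SD 0.12). The difference was -0.13 ± 0.08 (SE, n = 3 each, 95% interval -0.33 to 0.08, adjusted p = 0.707 in limma). The other 3 probes gave differences of -0.06 to -0.15. All 4 probes were highest in vehicle 3, and without that rat their differences lay between -0.07 and 0.

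Scd2 encodes a stearoyl-CoA desaturase, which puts the first double bond into saturated chains. Its brightest probe (A_42_P813567, NM_031841) read 0.87, 0.94 and 1.44 in vehicle rats and 1.30, 1.30 and 1.34 in treated rats. The treated values were nearly equal (SD 0.02), and the vehicle rats split into vehicle 1 and 2 below them and vehicle 3 above them (SD 0.31). The difference was 0.23 ± 0.16 (SE, n = 3 each, 95% interval -0.15 to 0.62, adjusted p = 0.712 in limma). The 2 dimmer probes, A_44_P194152 and A_44_P198396, gave 0.32 ± 0.16 and 0.21 ± 0.16. Vehicle 3 was the highest vehicle rat on all 3 probes. Without it the 3 differences were 0.41, 0.48 and 0.37, and without vehicle 1, the lowest rat on each, they were 0.13, 0.21 and 0.12. The related desaturase gene Scd had 2 probes that were well above background on 1 array at most and was not tested.

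Fads1 and Fads2 encode the front-end desaturases that turn essential fatty acids into arachidonate and other highly unsaturated products, with Fads2 acting first. The Fads1 probe (A_44_P465188, NM_053445) read 0.64, 1.35 and 0.86 in vehicle rats and 1.06, 1.30 and 1.70 in treated rats. Treated 3 was the highest and vehicle 1 the lowest, 2.09-fold apart, and vehicle 2 lay among the treated rats. The means were 0.95 ± 0.36 and 1.35 ± 0.32 (SD, n = 3 each), and the difference was 0.40 ± 0.24 (SE, 95% interval -0.17 to 0.97, adjusted p = 0.675 in limma), or 1.32-fold. Without treated 3 it was 0.23, and without vehicle 2 it was 0.60.

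The brighter Fads2 probe (A_64_P052145, NM_031344) read -0.54, -0.42 and -0.30 in vehicle rats and -0.33, -0.38 and -0.09 in treated rats, a difference of 0.15 ± 0.11 (SE, n = 3 each, 95% interval -0.11 to 0.42, adjusted p = 0.724 in limma). Treated 3 was again the highest rat, and the other 2 treated rats lay within the vehicle range. Without treated 3 the difference was 0.07. The second probe (A_44_P370122) gave 0.03 ± 0.09, and -0.042 without treated 3.

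**Figure D2:**
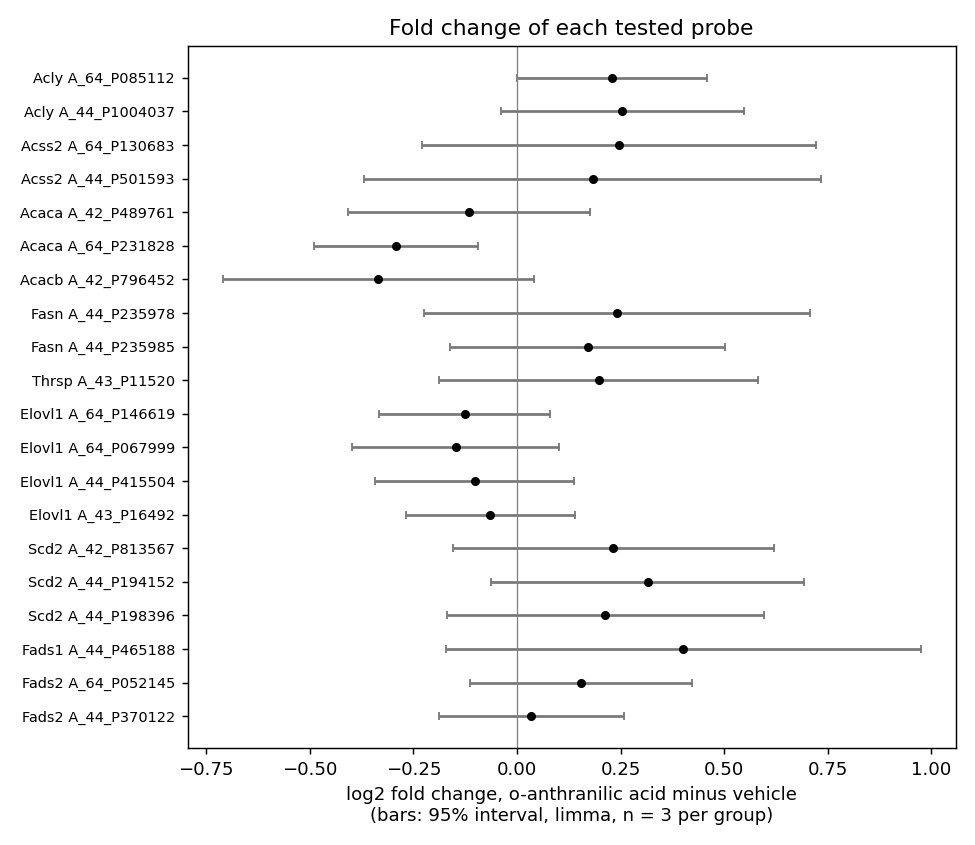
Difference of group means (points, log2, o-anthranilic acid minus vehicle) with the 95% interval of limma (bars) for the 20 tested probes, n = 3 rats per group. The Acaca probe A_64_P231828 is the one whose interval stays clearly off 0, and the widest interval is that of Fads1, from -0.17 to 0.97.

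Groups that do not overlap were counted as a measure free of the fitted variance. Of the 20 tested probes, 1 had all treated rats below all vehicle rats (8.78% of all tested probes did), and 0 had all treated rats above (6.19% of all tested probes). In either direction the share over all tested probes was 15.0%. This count moved with single rats. It was 9 without vehicle 2, 6 without vehicle 3, 5 without treated 1, 3 without treated 2 and 2 without vehicle 1, where 27.4%, 25.8%, 23.4%, 25.2% and 25.6% of all tested probes did not overlap. Without treated 3 it was 1, against 25.5%. These are counts of probes, several of them from the same gene. Without vehicle 2 the 9 were all probes of Acly and Fads1, which were higher, and of Acaca and Elovl1, which were lower. Without vehicle 3 the 6 were the Scd2 probes and the brighter Fads2 probe, higher, and the tested Acacb and dimmer Acaca probes, lower. The median difference of the 20 probes was 0.05 without treated 3 and 0.12 to 0.19 with any other rat left out.

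The rats within a group differed somewhat more for these genes than for the typical probe. The median pooled within-group SD was 0.17 for the 20 probes and 0.14 for all tested probes. The most variable member was Fads1, with an SD of 0.34, at the 87.3 percentile of all tested probes. The Acss2 probes followed at 0.33 and 0.28. Treated 3 was the highest rat for Fads1, for both Fasn probes and for both Fads2 probes. The mean over the 10 genes, each taken at its brightest tested probe and relative to its vehicle mean, was 0.02, -0.01 and -0.01 in vehicle rats and 0.04, 0.10 and 0.20 in treated rats. Treated 3 had the highest such mean, and treated 1 was close to vehicle 1.

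**Figure D3:**
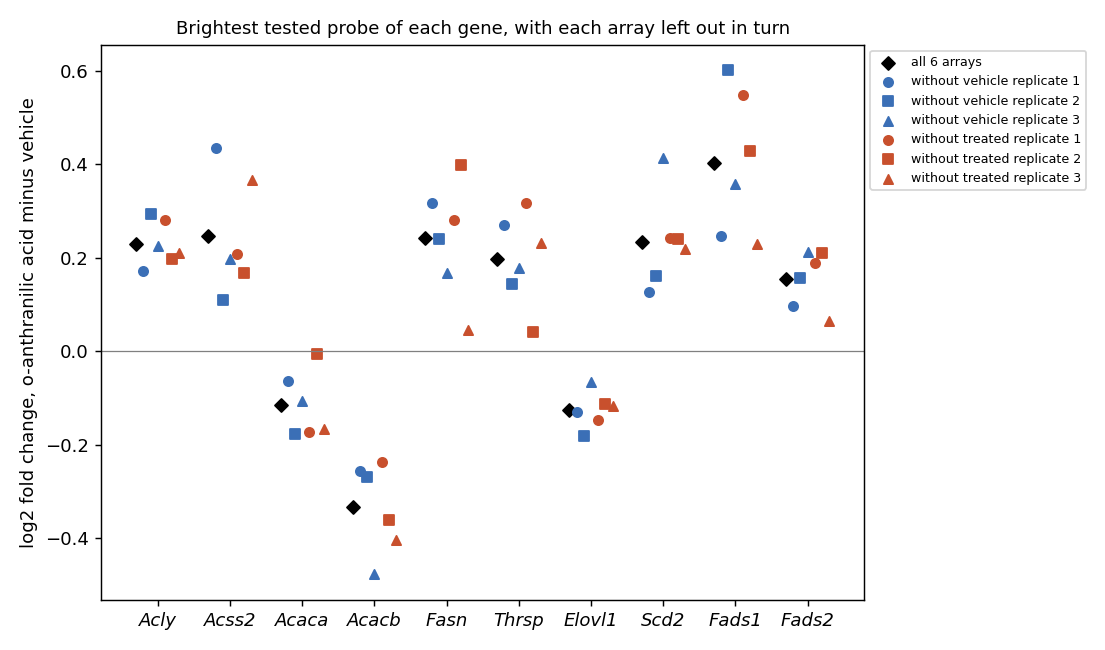
Difference of group means (vertical axis, log2, o-anthranilic acid minus vehicle) of each gene at its brightest tested probe, with all 6 arrays (black) and with each array left out in turn (blue for a vehicle rat, orange for a treated rat). Without treated 3 the Fasn point is at 0.04 and the Fads1 point at 0.23, and without treated 2 the Thrsp point is at 0.04 and the Acaca point at -0.01.

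Probes of one gene followed the same rats in most cases. Over the 6 arrays, Pearson's r was 0.934 for the Acly pair, 0.939 for Acss2, 0.978 for Fasn and 0.832 for Fads2. It ranged from 0.842 to 0.952 for the Scd2 probes and from 0.923 to 0.983 for the Elovl1 probes, and Acaca was the exception at 0.158. Between genes, at their brightest tested probes, r over the 45 pairs ranged from -0.850 to 0.891. These are descriptions over 6 arrays that share their treatment groups and scaling. Acly and Fads1 had the highest Pearson r (0.891), which was 0.870 after each group's mean was removed. By Spearman's rho they stood at 0.829, below Fads2 with Scd2 and Acaca with Elovl1, both at 0.886. Acly and Elovl1 ran opposite to each other (r = -0.779, or -0.550 within groups). The lowest value was that of Acacb with Scd2 (r = -0.850, or -0.782 within groups), with a Spearman's rho of -0.6. It was 0.384 without the 2 rats farthest from the Acacb median, which leaves too few arrays to say what the value rested on.

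Among 11903 other genes, those whose profile over the 6 arrays was most like the mean of the 10 genes were Dpep1 (r = 0.991), Kcnj8 (0.990), Cxcl12 (0.989), Lpin3 (0.983) and Kcnn1 (0.978). Those most like Fasn were Stx1a (0.993), Gucy1b1 (0.991), Tnnt2 (0.987), Gprc5c (0.984) and Lipn (0.981). With 6 arrays and no test, these names are a description only.

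The regulators of the pathway were read from a list of 16 genes, of which 15 were tested with 24 probes, and Srebf1 had no matched probe. At an unadjusted p under 0.05 in limma, 5 of these probes were higher and 0 lower, none were called after adjustment, and the median difference was 0.04. Over all tested probes 3.36% were higher and 5.11% lower at that p. The 5 probes came from 2 genes and were the 4 probes of Insig1, which encodes the sterol-sensing retention protein of the endoplasmic reticulum, and 1 of Srebf2, which encodes the sterol branch of the regulatory proteins. The brightest Insig1 probe (A_44_P406069) read 2.82, 2.52 and 2.65 in vehicle rats and 3.12, 2.88 and 3.08 in treated rats, a difference of 0.36 ± 0.11 (SE). All 4 Insig1 probes, at 0.36 to 0.40, had every treated rat above every vehicle rat. In the list of regulators 5 of the 24 probes did, and 1 had every treated rat below, against 6.19% and 8.78% of all tested probes. Srebf2 gave 0.32 ± 0.09 on that probe and 0.13 ± 0.11 on its brighter one. Mlxipl gave 0.10 ± 0.15, Nr1h3, which encodes a liver X receptor, 0.06 ± 0.07, and the Thrsp paralogue Mid1ip1 0.14 and 0.15. The 2 probes of Mbtps2, which encodes a protease that releases the regulatory proteins, gave -0.13 ± 0.12 on the brighter and 0.28 ± 0.14 on the dimmer, so they differed in sign. On the lower side were Insig2 (-0.13), Usf2 (-0.08 and -0.16) and Prkaa1 (-0.18).

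A second list held other genes of synthesis, elongation and desaturation, of which 22 genes with 38 probes were tested. At an unadjusted p under 0.05, 3 of the 38 probes were higher and 2 lower, against 3.36% and 5.11% of all tested probes, and the median was 0.01. The 3 higher probes came from 2 genes, Mlycd and Me1. Mlycd, which encodes malonyl-CoA decarboxylase and so removes the product of the carboxylases, gave 0.34 ± 0.07 (adjusted p = 0.437 in limma) and 0.22 ± 0.09 on its 2 probes. Its brighter probe read 3.4, 3.44 and 3.43 in vehicle rats and 3.68, 3.78 and 3.84 in treated rats, with no overlap. Me1, the cytosolic malic enzyme that supplies NADPH, gave 0.46 ± 0.19 (adjusted p = 0.586 in limma) and 0.34 and 0.37 on its other probes. Vehicle 1 lay among the treated rats on the Me1 probes A_42_P792817 and A_64_P136153. On A_43_P11481 it was level with the highest treated rat at 2.37. Fads3 (-0.20 ± 0.08) and Fads6 (-0.41 ± 0.15, and -0.42 ± 0.22 on its other probe), relatives of Fads1 and Fads2 of less certain function, were the lower probes. Cyb5a, the electron donor of desaturases, gave 0.20 ± 0.09 and Hacd4 -0.21 ± 0.09, both without overlap. Of the 38 probes, 3 had every treated rat above every vehicle rat and 4 every treated rat below. Over all tested probes 6.19% and 8.78% did. Elovl6 gave 0.06 and 0.03, and Elovl5 0.05 and -0.02.

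For fatty acid activation and the assembly of glycerolipids, 26 genes with 49 probes were tested, of which 0 were higher and 4 lower at an unadjusted p under 0.05, against 3.36% and 5.11% of all tested probes, with a median of -0.03. The 4 lower probes came from 3 genes. Acsl1, a long-chain acyl-CoA synthetase, gave -0.31 ± 0.09 on its brightest probe (adjusted p = 0.472 in limma) and -0.19 to -0.34 over its 4 probes. Pnpla2, the first lipase of triglyceride breakdown, gave -0.28 ± 0.10 and -0.20 ± 0.11, and Acss1, the mitochondrial counterpart of Acss2, -0.20 to -0.31 over its 4 probes. Dgat2, an enzyme of the last step of triglyceride synthesis, gave -0.10, -0.34 and -0.23, and Gpam, an acyltransferase of the first step, -0.07 ± 0.11. On the higher side were Lpin2 (0.23 and 0.10), Mogat1 (0.65 ± 0.33) and Lpin3 (0.15 and 0.01), none with an unadjusted p under 0.05.

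The sterol genes, which share regulators with fatty acid synthesis, are set beside it with the same measures. Of the 32 tested probes of 19 such genes, 16 were higher and 0 lower at an unadjusted p under 0.05, and 17 had every treated rat above every vehicle rat, with a median of 0.29. Over all tested probes 3.36% were higher at that p and 6.19% had every treated rat above. Tm7sf2 (0.74 and 0.57), Sqle (0.70 and 0.63) and Cyp51 (0.58 and 0.36), enzymes of cholesterol synthesis, had the smallest p, and none passed adjustment. Ebp, another such enzyme, gave -0.02 ± 0.07, and its probe was the 1 sterol probe below 0. The mean over the sterol genes relative to vehicle was 0.02, 0.03 and -0.05 in the vehicle rats and 0.34, 0.22 and 0.23 in the treated rats. Treated 1 had the highest sterol mean and, at 0.04, the lowest mean over the 10 fatty acid genes among the treated rats. The difference between the lists was not tested.

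**Figure D4:**
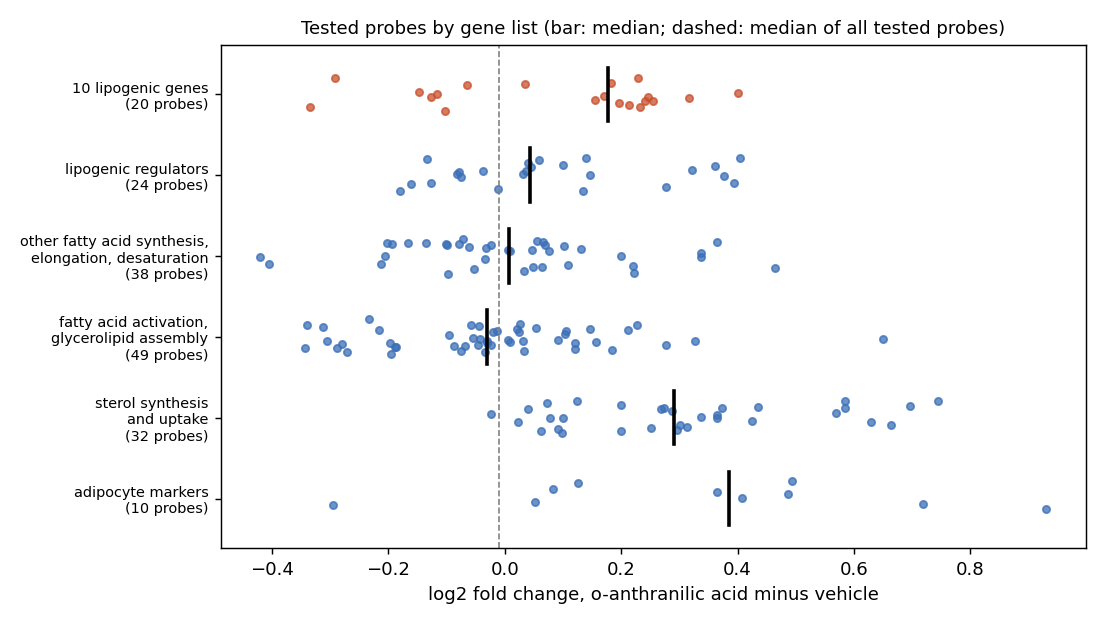
Log2 difference (o-anthranilic acid minus vehicle) of every tested probe, grouped by gene list, with list medians as black bars and the median of all tested probes as a dashed line. The 10 genes have a median of 0.18 and the sterol list 0.29, and the points of both lists overlap.

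The tissue was checked against markers. All 8 listed proximal tubule genes were measured, with 16 probes and a median difference of 0.00. Of these probes 8 had a difference above 0 and 8 below. The Slc5a2 probe A_44_P330330 gave 0.23 ± 0.08 (SE), with no overlap of the groups. Over all tested probes 6.19% had every treated rat above every vehicle rat and 8.78% every treated rat below. The median differences of the podocyte, distal tubule, collecting duct, endothelial and myeloid lists lay between -0.12 and 0.02. Of the markers of fat, a tissue rich in these enzymes, 7 of 10 listed genes were tested with 10 probes, of which 9 had a difference above 0, with a median of 0.39. Their mean relative to vehicle was 0.35, 0.08 and -0.44 in the vehicle rats and 0.55, 0.34 and 0.02 in the treated rats. Lep, the leptin gene, stood well above background on no array, and Plin1 and Plin4 had no matched probe. Adipoq, which encodes adiponectin, gave 0.36 ± 0.09 and 0.41 ± 0.09 on its 2 probes, with no overlap of the groups. The fat-marker probe below 0 was that of Cfd, at -0.30 ± 0.34. The fat-marker mean was highest in vehicle 1 among the vehicle rats and lowest in treated 3 among the treated rats. Both Acss2 probes had the same highest vehicle rat and the same lowest treated rat, whereas Fasn, Fads1 and Fads2 were highest in treated 3. Red cell markers, with 6 probes, all 6 with a difference above 0, had a median difference of 0.45. Their means were -0.19, -0.06 and 0.24 in vehicle rats and 0.23, 0.54 and 0.58 in treated rats. Liver markers, with 6 tested probes and a median difference of 0.04, had means of 0.14, 0.05 and -0.19 in vehicle rats and -0.72, -0.36 and 0.56 in treated rats. Of these probes 4 had a difference above 0 and 2 below. The Apoa1 probe A_44_P411097 gave -0.67 ± 0.18, with all treated rats below all vehicle rats. The part of these markers in the values of the 10 genes was not tested. In bulk cortex RNA, fewer cells of a type and less RNA per cell cannot be told apart.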

How the data were processed

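Cy3-labelled cRNA of 6 rats was hybridised to 6 arrays, and the submitters describe the 3 samples of each group as biological replicates. The submitters' processing notes name Agilent Feature Extraction 10.7. In the deposited scanner files, columns give each spot's intensity on a linear scale, background-subtracted and not scaled between arrays, per the file headers. The authors' deposited value table holds a linear ratio, which matched the processed signal over the array's 75th percentile. Its column medians were 0.103 to 0.106. It uses another replicate order than the scanner files, and replicates are named here by scanner file.

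From these, log2 values were computed by subtracting the log2 of each array's 75th percentile. Left out were control spots, 84 external RNA control probes and 47 probes with outlier flags, none of them a probe of the 10 genes, and no spot was saturated. Names came from RefSeq accessions: 27435 probes had 1 symbol, none had several and 34091 had none. Between 63.6% and 69.3% of probes per array were well above background, and 41551 probes passed the filter of 3 arrays. The 75th percentile signals were 869 to 1004. The number of arrays limits the precision.

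The comparison used limma 3.58.1 and, under R 4.3.3, data.table (version 1.17.8), statmod 1.5.0 and jsonlite 2.0.0, with lmFit, eBayes, Benjamini-Hochberg adjustment and a threshold of 0.05, probe by probe; the fit was tested on simulated data. The genes and lists were chosen with earlier results of these data known. Named were every probe of the 10 genes, up to 3 genes per direction and list with the smallest unadjusted p, certain regulators and neighbours fixed by name, and 5 genes with the highest Pearson r to each of 2 profiles. Same-numbered vehicle and treated samples did not deviate together (r = 0.007, -0.044 and -0.005), so they were not paired. Alternatives covered background correction (normexp with an offset of 50 units), scaling, filter, probe summary, variance model, array weights, blocks and leaving out each array. Gene coordinates on the array's build are not used here, and some genes of the sterol list are not reported here.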

Additional observations from a re-analysis of the deposited data

How the results depend on the processing

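No probe of the 10 genes was called under any of the 19 alternatives. Over all probes, limma called 6 with normexp, 6 with a robust fit and variance trend, 4 with the slide as a block, 2 with the mean of each gene's kept probes, 1 with probes above background on all 6 arrays, and 0 to 4 with an array left out. With the replicate number as a replicate block, 0 probes were called over all probes and 3193 had an unadjusted p under 0.05, against 3519 without it. Under that block the member probes at an unadjusted p under 0.05 numbered 3, against 1. That count was 2 with the filter on all 6 arrays, 2 with the variance trend, 4 with array weights, 0 with the brightest probe of each gene and 1 to 5 with an array left out. With the brightest probe of each gene only 10 member probes were tested, and the dimmer Acaca probe was not among them. The share of all tested probes at that p was 7.68% with the block, 8.95% with the filter, 8.61% with the trend and 8.62% with array weights. It was 8.3% with the brightest probe and 6.79% to 9.02% with an array left out. Without vehicle 3, where the count was 5 of 20, it was 6.97%. Probes of the 10 genes whose groups do not overlap numbered 2 with normexp, 2 with quantile normalization and 2 with the authors' deposited values. They numbered 0 among the 10 brightest probes, without the dimmer Acaca probe, and 1 to 9 with an array left out. Over all tested probes the shares were 13.6%, 15.2%, 14.9% and 14.7%, and 23.4% to 27.4% with an array left out. The median difference of the 20 probes was 0.11 with normexp, 0.13 with the slide as a block and 0.05 to 0.19 with an array left out. The sign turned in the Acss2 probe A_44_P501593 without vehicle 2 (-0.019, range -0.019 to 0.37 over the arrays left out) and in the Fads2 probe A_44_P370122 without treated 3 (-0.042, range -0.042 to 0.10). The cause was not tested. No other probe of the 10 genes changed sign. With 3 rats per group the 95% intervals of the 20 probes reached from -0.71 to 0.97. The dim tested probes (Acaca, Acacb, Thrsp and part of Scd2) were well above background on all 6 arrays. Their background-subtracted signals were 46.0 to 173 units, against a median local background of 32 to 73 units per array.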
